A study of Homo sapiens with 12 samples.

Results

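MYBL2, FOXM1 and the MuvB complex are the activators and the DNA-binding scaffold of the mitotic gene program. They were followed here as 9 genes chosen by symbol, MYBL2, FOXM1, LIN9, LIN37, LIN52, LIN54, RBBP4, RBL1 and RBL2, of 19225 rows in the count table, and all 9 were found. Poly(A) RNA was sequenced from HN6 and HN30 cells, established lines of oral squamous cell carcinoma (OSCC), 24 h after transfection. The cells received a scrambled siRNA (NC), siFAT1-1 or siFAT1-2, and the siRNAs against FAT1 together are called knockdown (KD). FAT1 encodes a giant atypical cadherin. Each of the 6 conditions had 2 repeats, labelled time1 and time2, which gives 4 NC and 8 KD libraries. No other genetic change or treatment is named for any group. The total per library ran from 26430049 to 47639010 counts.

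The MuvB core consists of LIN9, LIN37, LIN52, LIN54 and the histone-binding protein RBBP4. In resting cells and in early G1 it joins a pocket protein, p130 (RBL2) or p107 (RBL1), with E2F4 or E2F5 and a DP partner in the DREAM complex, which keeps cell cycle genes silent. In cycling cells the core leaves the pocket proteins and binds B-MYB (MYBL2) and later FOXM1, and these complexes switch on the genes of G2 and mitosis.

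The keratinocyte markers of the lines were present. KRT5 ran from 90.6 to 1987 CPM (counts scaled to library size), TP63 from 27.6 to 275 CPM and CDH1 from 314 to 1010 CPM, whereas KRT14 was at 0 in 5 of the 12 libraries and did not exceed 2.42 CPM. Of the markers of other cell types, PTPRC was at 0 in 11 libraries, and DCN, COL3A1, CD3E and PECAM1 stayed under 1 CPM in every library. Of the fibroblast and endothelial markers COL1A2, LUM, PDGFRB, CDH5 and VWF reached 4.43, 13.7, 9.37, 6.53 and 1.53 CPM. COL1A1 reached 146 CPM and CD68 reached 121 CPM in HN6, against highest values of 46.5 and 31.3 CPM in HN30.

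FAT1 itself was lower in all 8 KD libraries than in both NC libraries of its line. In HN6 its level was 56.8 and 66.7 CPM in NC, 7.61 and 13.5 CPM under siFAT1-1 and 13.2 and 21.4 CPM under siFAT1-2. In HN30 it was 13.6 and 14.7 CPM in NC, 4.86 and 6.26 CPM under siFAT1-1 and 10.8 and 7.74 CPM under siFAT1-2. KD and NC did not overlap in either line, although the siRNAs overlapped each other in HN6, and NC cells of HN30 held less FAT1 mRNA than NC cells of HN6. FAT1 fell 4.33-fold in HN6 (log2 fold change -2.11, SE 0.40), and in HN30 it was 1.91-fold lower (log2 fold change -0.94, SE 0.35), which is under the fold threshold used here. Without HN30 siFAT1-2 repeat 1 it was -1.18 in HN30 and past the threshold.

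One library stood farthest apart in its balance of genes rich and poor in G and C. The GC tilt of a library, the median log2 deviation of the 20% of genes richest in G and C minus that of the poorest 20%, was 1.16 in HN6 NC repeat 2 and -0.0862 in HN6 NC repeat 1. It was -0.601 and -0.903 in the HN6 siFAT1-2 libraries and lay between -0.224 and 0.383 in the other 8. The HN6 NC repeats were also the least alike of all repeats (Pearson's r = 0.942 across genes). The transcripts of MYBL2, FOXM1 and LIN37 hold 60.0%, 55.7% and 59.9% G and C, and those of the other 6 genes between 34.9% and 42.8%, so values that turn on that library are given below with and without it. Its part in the results beyond these values was not tested.

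The genes were placed on GRCh38 with the GENCODE 44 annotation. MYBL2 (ENSG00000101057, 14 exons) spans chr20:43667019-43716495 on the plus strand, and FOXM1 (ENSG00000111206, 9 exons) spans chr12:2857680-2877174 on the minus strand. RBL1 (ENSG00000080839, 22 exons) spans chr20:36996349-37095997 on the minus strand, on the same chromosome as MYBL2, and RBL2 (ENSG00000103479, 22 exons) spans chr16:53433977-53491648 on the plus strand. LIN9 and RBBP4 lie on chromosome 1, LIN54 on chromosome 4, LIN52 on chromosome 14 and LIN37 on chromosome 19. Exons of FOXM1 overlap those of ITFG2 over 782 nt, those of RBBP4 overlap SYNC over 2160 nt and those of RBL2 overlap AKTIP over 609 nt, each on the opposite strand. Those of LIN37 share 752 nt, 26.7% of their length, with a protein-coding gene on the same strand (ENSG00000188223) and 1180 nt, 41.8%, with a lncRNA on the opposite strand (ENSG00000267439), and neither was found by name in the count table. RBBP4 also has 7 named processed pseudogenes.

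Promoters are shown for the activator MYBL2 and for RBL1, which were both lower in HN30 after knockdown, and for RBL2 and RBBP4, which were not. The RefSeq promoters used here (GRCh38.p14) were 14 for 8 of the 9 genes, and that of FOXM1 was not analysed here. Each window below runs from 110 bases before to 30 bases after a RefSeq start, read along the gene, and lies at chr20:43667004-43667143 (plus strand) for MYBL2, chr20:37095968-37096107 (minus strand) for RBL1, chr16:53434361-53434500 (plus strand) for RBL2 and chr1:32651098-32651237 (plus strand) for RBBP4. Capitals mark the E2F words GGCGGGA, TTTGGCGC and TTTCGCGC and the CHR word TTTGAA, the element that LIN54 contacts, on either strand.
MYBL2: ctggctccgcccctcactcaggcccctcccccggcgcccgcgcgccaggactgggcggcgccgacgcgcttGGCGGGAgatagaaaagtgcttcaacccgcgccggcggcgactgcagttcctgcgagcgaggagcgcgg
RBL1: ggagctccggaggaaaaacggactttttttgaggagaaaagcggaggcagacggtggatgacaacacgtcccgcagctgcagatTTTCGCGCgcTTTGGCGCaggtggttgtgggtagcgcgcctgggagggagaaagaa
RBL2: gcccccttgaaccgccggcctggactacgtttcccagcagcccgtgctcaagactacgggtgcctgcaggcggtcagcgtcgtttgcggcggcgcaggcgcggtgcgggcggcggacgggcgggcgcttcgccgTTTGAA
RBBP4: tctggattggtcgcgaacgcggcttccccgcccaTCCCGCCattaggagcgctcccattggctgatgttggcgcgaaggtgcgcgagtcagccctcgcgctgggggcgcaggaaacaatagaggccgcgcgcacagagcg

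In MYBL2 the word GGCGGGA ran from base -39 to -33, counted with the start base as 0. RBL1 held TTTCGCGC from -26 to -19 and TTTGGCGC from -16 to -9, side by side. RBL2 held TTTGAA from 24 to 29 and no E2F word in its windows, and RBBP4 held GGCGGGA on the other strand from -76 to -70. Of the 14 promoters, 9 held at least 1 of the E2F words and 5 held TTTGAA, where promoters of 1 gene can overlap. Over all 35116 RefSeq promoters of 300 bases, 16.2% held an E2F word and 15.2% held TTTGAA, while TTTGGCGC and TTTCGCGC were in 0.652% and 0.515%. The word GGCGGGA alone was in 15.4%. These matches describe letters only.

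Per length, the activators had the highest medians of the 9 mRNAs. The median level over all libraries was 48.3 RPKM (reads scaled by merged exon length and by library size) for MYBL2 and 24.2 RPKM for FOXM1. RBBP4 followed at 9.29 RPKM, RBL2 at 6.51 RPKM, LIN52 at 4.31 RPKM, RBL1 at 3.88 RPKM, LIN37 at 3.22 RPKM, LIN54 at 2.41 RPKM and LIN9 at 1.48 RPKM. The order did not hold in every library, and in HN30 FOXM1 lay below RBBP4 under siFAT1-1 (mean 5.84 against 7.62 RPKM) and in siFAT1-2 repeat 1 (8.57 against 9.31 RPKM). Between the lowest and the highest library, MYBL2 differed 13.2-fold and FOXM1 11.7-fold in CPM, and RBBP4, the steadiest, differed 1.67-fold. LIN9 differed 11.99-fold and LIN54 7.41-fold, with HN6 NC repeat 2 as the lowest library of both. All 9 genes passed the filter on low counts, and the lowest count of any was 46, for LIN9 in that library.

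**Figure D1:**
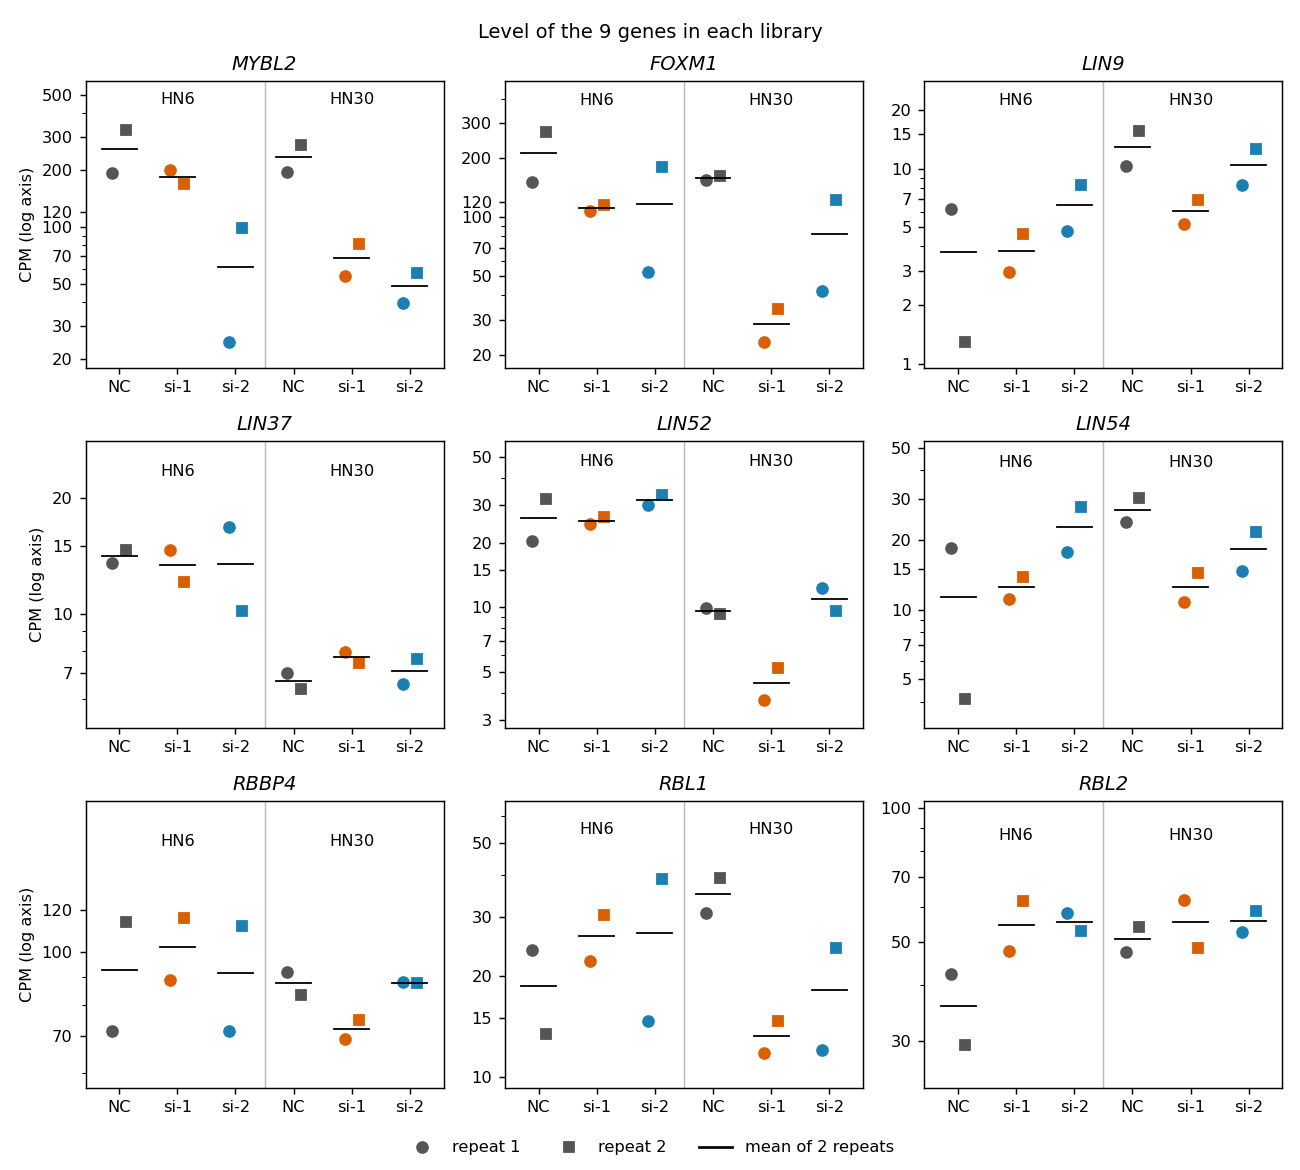
Level of each of the 9 genes in CPM on a log axis (vertical) in the 6 conditions (horizontal), with a circle for repeat 1, a square for repeat 2 and a line for their mean. MYBL2 is lower under both siRNAs than in NC in HN30, while RBBP4 stays between 69.3 and 116 CPM in all libraries.

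MYBL2, the B-MYB partner of MuvB in S phase and G2, was lower after FAT1 knockdown. In HN30 its level was 196 and 272 CPM in NC, 55.0 and 81.8 CPM under siFAT1-1 and 39.8 and 57.3 CPM under siFAT1-2. All 4 KD libraries lay far below both NC libraries. In HN6 it was 194 and 326 CPM in NC, 201 and 169.7 CPM under siFAT1-1 and 24.6 and 98.6 CPM under siFAT1-2. Here siFAT1-1 overlapped NC, and siFAT1-2 lay below both NC libraries.

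Across both lines MYBL2 fell 2.95-fold (log2 fold change -1.56, 95% interval -2.45 to -0.68, edgeR unadjusted P = 0.00215), with an adjusted p of 0.118. Without HN6 NC repeat 2 the value was -1.58. In bulk RNA, fewer cells in a phase of the cycle and less of the mRNA per cell cannot be told apart. An exact two-sided permutation test of its log2 CPM, over all 225 ways to relabel the libraries within the lines, gave p = 0.0178, where the smallest p possible is 0.00444. With labels moved only among libraries of a line that share a repeat number, which allows 81 arrangements and a smallest p of 0.0123, the exact permutation test gave p = 0.037. MYBL2 and FOXM1 were the 2 of 9 genes called lower, that is with an unadjusted P under 0.05 and a log2 fold change beyond 1 (the thresholds of the study), and none was called higher. Of all 13887 genes tested, 1.04% were called lower. No member reached an adjusted p under 0.05 in this comparison with edgeR, where 3 had an unadjusted P under 0.05, beside 2016 of all 13887 genes, but MYBL2 reached an adjusted p of 0.0167 with DESeq2. None of the 9 had all 8 KD libraries below both NC libraries of their line, an arrangement found in 3.15% of all genes.

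Within HN30, MYBL2 fell 4.02-fold (log2 fold change -2.01, SE 0.29, edgeR adjusted p = 0.359). Over the alternatives, DESeq2 and limma-voom among them, MYBL2 had adjusted p-values from 1.16e-05 to 0.502 there. Within HN6 it was 2.07-fold lower (log2 fold change -1.05, SE 0.66, edgeR adjusted p = 0.814), which did not pass the test, and leaving out HN6 NC repeat 2 brought the log2 fold change to -0.64. The difference between the lines, tested as an interaction, was -0.93 (95% interval -2.76 to 0.90, edgeR adjusted p = 1.00). It was -0.60 without HN6 NC repeat 1, and -1.27 and called without HN6 siFAT1-2 repeat 1. FAT1 thus fell more in HN6 and MYBL2 had its larger difference in HN30, but neither interaction had an adjusted p under 0.05.

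FOXM1, the forkhead factor that joins MuvB at mitotic promoters, was also lower after knockdown. In HN30 its level was 154 and 163 CPM in NC, 23.3 and 34.1 CPM under siFAT1-1 and 42.2 and 123 CPM under siFAT1-2. All 4 KD libraries lay below NC, although siFAT1-2 repeat 2 was close to it. In HN6 it was 152 and 272 CPM in NC, 108 and 115 CPM under siFAT1-1 and 52.6 and 179 CPM under siFAT1-2, so that the second repeat of siFAT1-2 lay inside the NC range. Every KD library of both lines lay below the NC library of its line with the same repeat number. The share of all genes with that arrangement was not counted.

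Across both lines FOXM1 fell 2.32-fold (log2 fold change -1.22, 95% interval -2.08 to -0.35, edgeR adjusted p = 0.194), and the value was -1.16 without HN6 NC repeat 2. The exact two-sided permutation test gave p = 0.0267 within the lines and p = 0.0247 within lines and repeat numbers. In HN30 the fall was 2.86-fold (log2 fold change -1.52, SE 0.59, edgeR adjusted p = 0.502), and it missed the threshold without NC repeat 1, NC repeat 2, siFAT1-1 repeat 2 or siFAT1-2 repeat 1 of HN30, with values between -1.53 and -1.33. In HN6 FOXM1 was 1.82-fold lower (log2 fold change -0.86, SE 0.45, edgeR adjusted p = 0.814) and did not pass, and the log2 fold change was -0.39 without HN6 NC repeat 2. Without HN6 siFAT1-2 repeat 2 it was -1.19 and called. The interaction was -0.61 (95% interval -2.46 to 1.23), and single libraries moved it from -1.36, without HN30 siFAT1-2 repeat 2, to -0.24, without HN6 NC repeat 1.

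**Figure D2:**
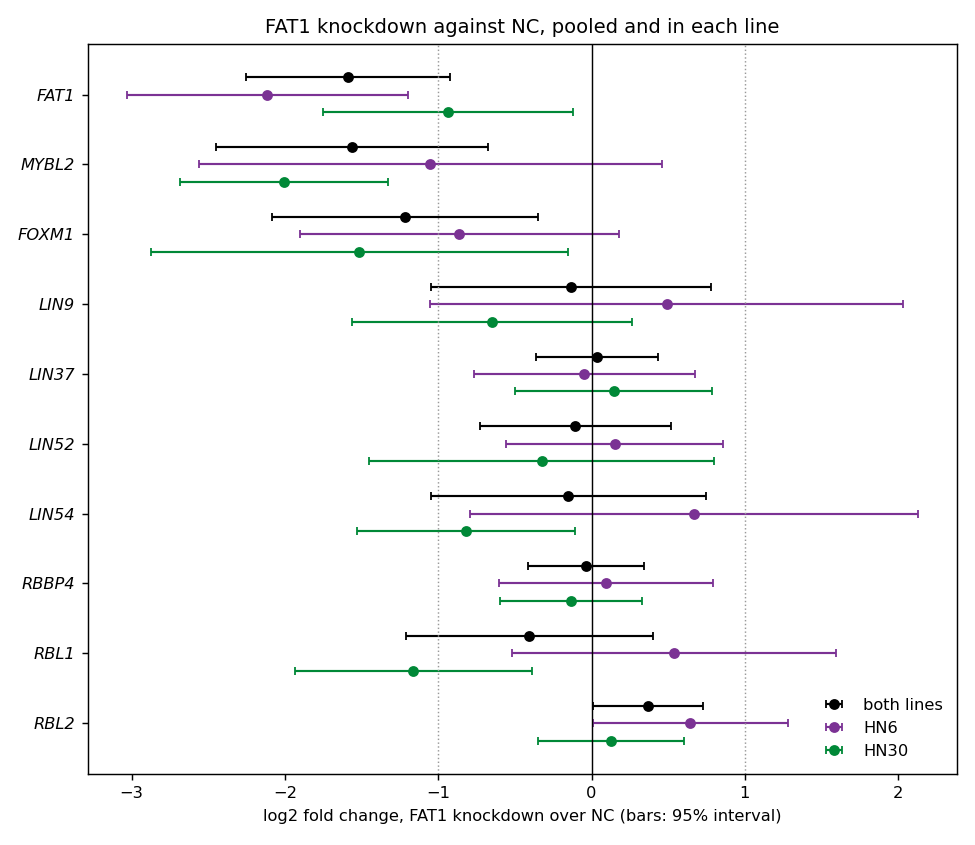
Log2 fold change of KD over NC (horizontal) for FAT1 and the 9 genes, over both lines and in HN6 and HN30 alone, with 95% intervals from the edgeR fits and dotted lines at the fold threshold. MYBL2 and FOXM1 lie below -1 across both lines, and RBL1 lies at -1.16 in HN30 and at 0.54 in HN6.

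Across both lines MYBL2 had its lower value under siFAT1-2 and FOXM1 under siFAT1-1. Under siFAT1-1, MYBL2 fell 2.14-fold (log2 fold change -1.10, SE 0.40, edgeR adjusted p = 0.168) and FOXM1 fell 3.10-fold (-1.63, SE 0.47, edgeR adjusted p = 0.0812). These were the 2 of 9 genes called lower, beside 2.35% of all genes. The call of MYBL2 was lost without HN30 siFAT1-1 repeat 1 (-0.85), HN30 NC repeat 2 (-0.92) or HN30 siFAT1-1 repeat 2 (-1.01). Under siFAT1-2, MYBL2 fell 4.55-fold (-2.19, SE 0.41) with an edgeR adjusted p of 0.00822, and FOXM1 was 1.88-fold lower (-0.91, SE 0.45, edgeR adjusted p = 0.201) and was not called. MYBL2 was the 1 gene of the 9 called lower there, beside 4.75% of all genes, and the 1 with an adjusted p under 0.05, beside 11.8%. Over the alternatives, DESeq2 and limma-voom among them, its adjusted p ran from 7.84e-06 to 0.0767, so not every fit passed. With the repeat number as a block FOXM1 was called under siFAT1-2 as well (log2 fold change -1.06, edgeR adjusted p = 0.109), as it was with limma-voom (-1.12) and without HN6 NC repeat 1 (-1.12) or HN30 siFAT1-2 repeat 2 (-1.41). Both siRNAs were set against the same NC libraries.

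Compared directly, MYBL2 was 2.13-fold higher under siFAT1-1 than under siFAT1-2 (log2 difference 1.09, 95% interval 0.21 to 1.97, edgeR adjusted p = 0.0804). It was the 1 of 9 genes called higher, beside 7.27% of all genes, and with an offset for GC content its log2 difference was 0.80 and no longer passed. It also missed the threshold without HN6 siFAT1-1 repeat 1 (0.87) or HN6 siFAT1-2 repeat 1 (0.76). For FOXM1 the difference was -0.72 (95% interval -1.72 to 0.28, edgeR adjusted p = 0.291), and without HN6 siFAT1-2 repeat 1 it was -1.06 and called, while without HN30 siFAT1-2 repeat 2 it was -0.30. In HN6 alone the mean log2 CPM of FOXM1 was 6.80 under siFAT1-1 and 6.60 under siFAT1-2. FAT1 was 3.99-fold lower under siFAT1-1 and 2.41-fold lower under siFAT1-2, and the log2 difference of -0.73 between the siRNAs (95% interval -1.39 to -0.06, edgeR adjusted p = 0.119) was not called.

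The ratio of MYBL2 to FOXM1 within a library, a measure chosen after its values were seen, was higher in each siFAT1-1 library than in any siFAT1-2 library. In CPM it was 1.28 and 1.199 in HN6 NC and 1.28 and 1.67 in HN30 NC. Under siFAT1-1 it was 1.87 and 1.47 in HN6 and 2.36 and 2.40 in HN30, and under siFAT1-2 it was 0.468 and 0.550 in HN6 and 0.945 and 0.467 in HN30. Every siFAT1-1 library lay above every NC library of its line and every siFAT1-2 library lay below. The mean log2 ratio was 0.99 under siFAT1-1 and -0.78 under siFAT1-2, which is given as a description. The GC tilt was also higher in each siFAT1-1 library (0.0126 to 0.383) than in any siFAT1-2 library (-0.903 to -0.215). Its part in the ratio was not tested.

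**Figure D3:**
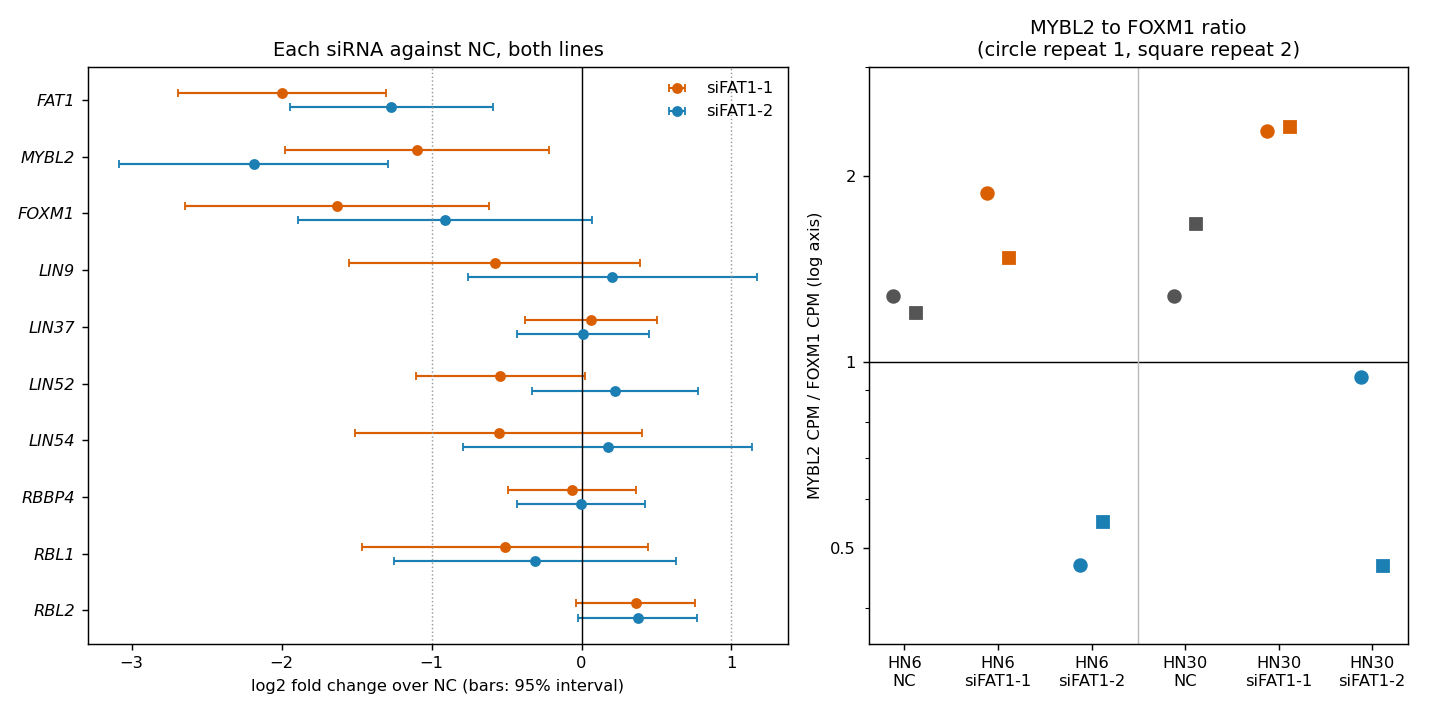
Left, log2 fold change over NC (horizontal) of FAT1 and the 9 genes under siFAT1-1 and siFAT1-2, with 95% intervals from the edgeR fits. Right, the ratio of MYBL2 to FOXM1 in CPM (log axis) in each library, where all 4 siFAT1-2 libraries lie below 1 and all 4 siFAT1-1 libraries at 1.47 or above.

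The MuvB core genes showed no called change across both lines, but their intervals differed in width. LIN37, a core subunit needed for repression by DREAM, had a log2 fold change of 0.04 (95% interval -0.36 to 0.44), and RBBP4, which also serves several chromatin complexes, had -0.03 (-0.41 to 0.34). For these genes a change beyond the fold threshold lay outside the interval, although reads of LIN37 cannot be told apart from those of its overlapping genes where exons are shared. LIN52, the subunit that docks the pocket proteins, had -0.10 (-0.73 to 0.52). LIN9, which contacts B-MYB, had -0.13 (-1.05 to 0.78), and LIN54, the DNA-binding subunit, had -0.15 (-1.05 to 0.75). Without HN6 NC repeat 2 the values were -0.52 for LIN9, -0.57 for LIN54, -0.05 for LIN52, 0.08 for LIN37 and 0.06 for RBBP4, and without HN30 NC repeat 2 they were 0.14 for LIN9 and 0.10 for LIN54, none of them called. For LIN9 and LIN54 a change of 2-fold in the lower direction could not be told from none.

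LIN54 differed between the lines in where its KD libraries lay. In HN30 its level was 23.9 and 30.3 CPM in NC, 10.7 and 14.4 CPM under siFAT1-1 and 14.7 and 21.7 CPM under siFAT1-2. All 4 KD libraries lay below both NC libraries there, as did those of MYBL2, FOXM1 and RBL1, an arrangement found in 11.1% of all genes. In HN6 LIN54 was 18.5 and 4.09 CPM in NC, 11.1 and 13.9 CPM under siFAT1-1 and 17.8 and 27.7 CPM under siFAT1-2. The second NC library, the one with the high GC tilt, was lower than all others.

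LIN54 was 1.76-fold lower in HN30 after knockdown (log2 fold change -0.82, SE 0.31, edgeR unadjusted P = 0.0293, adjusted p = 0.492), which did not reach the fold threshold. Without HN30 siFAT1-2 repeat 2 it was -1.03 and called. In HN6 its log2 fold change was 0.67 (SE 0.63), and without HN6 NC repeat 2 it was -0.05. The interaction was -1.45 (95% interval -3.08 to 0.17, edgeR unadjusted P = 0.0754, adjusted p = 1.00), and -0.72 without HN6 NC repeat 2. It was called lower without HN6 NC repeat 1 (-2.91), with limma-voom (-1.80) and with the GC offset, alone (-1.19) or with the repeat number as a block (-1.27).

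LIN9 was likewise lowest in HN6 NC repeat 2. In HN30 it was 10.3 and 15.5 CPM in NC, 5.20 and 6.94 CPM under siFAT1-1 and 8.22 and 12.7 CPM under siFAT1-2, and the siFAT1-2 libraries overlapped NC. In HN6 it was 6.18 and 1.297 CPM in NC, 2.94 and 4.62 CPM under siFAT1-1 and 4.79 and 8.21 CPM under siFAT1-2. Its log2 fold change was -0.65 (SE 0.39) in HN30 and 0.49 (SE 0.67) in HN6, neither past the test, and in HN6 it was -0.24 without NC repeat 2 and -0.02 with an offset for GC content. In HN30 it was -0.33 without NC repeat 2 and -0.93 without siFAT1-2 repeat 2.

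**Figure D4:**
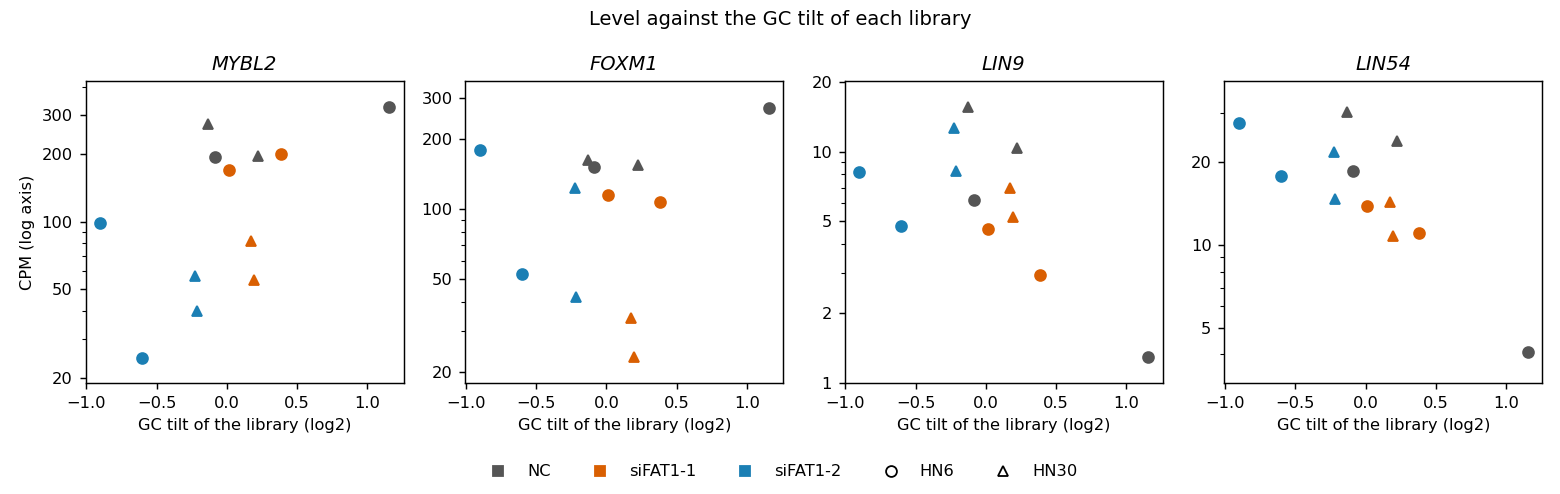
Level in CPM on a log axis (vertical) of MYBL2, FOXM1, LIN9 and LIN54 against the GC tilt of the library (horizontal), with circles for HN6, triangles for HN30 and colours for the siRNA. HN6 NC repeat 2, at a tilt of 1.16, is the highest library of MYBL2 and FOXM1 and the lowest of LIN9 and LIN54.

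LIN52 differed between the lines. In HN30 it was 9.96 and 9.32 CPM in NC, 3.70 and 5.21 CPM under siFAT1-1 and 12.3 and 9.61 CPM under siFAT1-2. Its siFAT1-1 libraries lay below the others of that line. In HN6 all libraries lay between 20.4 and 33.2 CPM. LIN52 was lower under siFAT1-1 than under siFAT1-2 by 0.77 on the log2 scale (SE 0.26, edgeR unadjusted P = 0.0118, adjusted p = 0.0598), within the fold threshold. LIN37 lay between 10.2 and 16.8 CPM in HN6 and between 6.35 and 7.97 CPM in HN30, and RBBP4 between 71.6 and 116 CPM in HN6 and between 69.3 and 91.9 CPM in HN30, with KD and NC overlapping in each.

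Of the pocket proteins p107 and p130, RBL1 was called lower in HN30 and RBL2 was called in no comparison with NC. RBL1, itself a gene activated by E2F at the start of S phase, was 31.0 and 39.1 CPM in HN30 NC, 11.9 and 14.7 CPM under siFAT1-1 and 12.02 and 24.3 CPM under siFAT1-2. All 4 KD libraries lay below NC. RBL1 fell 2.24-fold in HN30 (log2 fold change -1.16, SE 0.33, edgeR unadjusted P = 0.00864, adjusted p = 0.415). With MYBL2 and FOXM1 it made 3 of 9 genes called lower in that line, beside 1.91% of all genes. Without HN30 NC repeat 2, the value of RBL1 was -0.99 and not called, and FOXM1 was lost as well, which left MYBL2 as the 1 gene called.

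In HN6 RBL1 was 23.9 and 13.5 CPM in NC, 22.3 and 30.4 CPM under siFAT1-1 and 14.7 and 39.0 CPM under siFAT1-2, and 2 KD libraries lay inside the NC range and 2 above it. Its log2 fold change was 0.54 (SE 0.46) there, and ran from 0.18 without HN6 NC repeat 2 to 1.02 without HN6 NC repeat 1, not called in either. None of the 9 genes was called in HN6, beside 0.888% of all genes called lower, where 1 had an unadjusted P under 0.05 in edgeR, beside 779 of all 13626 genes. DESeq2 and limma-voom called none of the 9 either. Without HN6 NC repeat 1, so that the library with the high GC tilt stood alone for NC, the log2 fold changes were 2.02 for LIN9 and 2.14 for LIN54. The interaction of RBL1 was -1.67 (95% interval -2.97 to -0.37, edgeR unadjusted P = 0.0163, adjusted p = 1.00). It was the 1 gene of the 9 called lower in that test, beside 0.915% of all genes, and it was not called without HN6 NC repeat 2 (-1.28) or HN30 NC repeat 2 (-1.49). Without HN6 NC repeat 1, which left NC repeat 2 alone in that line, the interaction was -2.13 for RBL1, -2.62 for LIN9 and -2.91 for LIN54.

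RBL2, the main pocket protein of DREAM in resting cells, was not lower in any comparison with NC. In HN6 it was 42.4 and 29.4 CPM in NC, 47.8 and 61.8 CPM under siFAT1-1 and 58.0 and 52.9 CPM under siFAT1-2, all 4 KD libraries above NC, an arrangement found in 6.91% of all genes. In HN30 it was 47.6 and 54.0 CPM in NC and between 48.6 and 62.3 CPM after knockdown, with overlap. Its log2 fold change was 0.37 across both lines (95% interval 0.01 to 0.73, edgeR unadjusted P = 0.0464, adjusted p = 0.338), 0.65 in HN6 (SE 0.28) and 0.13 in HN30 (SE 0.20). None of these reached the fold threshold, and without HN6 NC repeat 2 the value across both lines was 0.21 with an unadjusted P of 0.198 in edgeR and that in HN6 was 0.40.

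Per length, RBL2 exceeded RBL1 1.13-fold and 1.01-fold in HN30 NC. It did so 3.86-fold and 2.43-fold under siFAT1-1 and 3.21-fold and 1.78-fold under siFAT1-2, so every KD library of HN30 had the larger ratio in RPKM. In HN6 the ratio was 1.302 and 1.601 in NC, 1.57 and 1.49 under siFAT1-1 and 2.89 and 0.998 under siFAT1-2, with no separation.

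Ordered by mean CPM over the 6 conditions, MYBL2 was highest in HN6 NC (260.1 CPM) and HN30 NC (234 CPM), then in HN6 siFAT1-1 (185 CPM). The remaining means, 68.4, 61.6 and 48.6 CPM, belonged to HN30 siFAT1-1, HN6 siFAT1-2 and HN30 siFAT1-2, and only the step after HN6 siFAT1-1 separated neighbours whose repeats did not overlap. FOXM1 was also highest in HN6 NC (212 CPM) and HN30 NC (158 CPM), and its one step without overlap was the last, from HN30 siFAT1-2 (82.4 CPM) to HN30 siFAT1-1 (28.7 CPM). The order of LIN52 and LIN37 followed the line, with all 3 HN6 conditions above all 3 HN30 conditions.

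Between the lines, adjusted for knockdown, LIN52 was 3.33-fold lower in HN30 than in HN6 (log2 fold change -1.73, SE 0.28, edgeR adjusted p = 0.000242). LIN37 was 1.91-fold lower (-0.94, SE 0.18, edgeR adjusted p = 0.000747), and LIN9 was 2.07-fold higher in HN30 (1.05, SE 0.41, edgeR adjusted p = 0.0459). Thus 3 of 9 genes had an adjusted p under 0.05, beside 49.2% of all genes, 1 was called lower, beside 14.7%, and 1 higher, beside 16.2%. With an offset for GC content the value of LIN9 was 0.53 and not called. The call was also lost without HN6 NC repeat 2 (0.79), HN30 NC repeat 2 (0.89), HN30 siFAT1-2 repeat 2 (0.92) or HN6 siFAT1-1 repeat 1 (0.97). MYBL2 (-0.77, SE 0.40) and FOXM1 (-0.83, SE 0.39) did not pass the test, nor did LIN54, RBBP4, RBL1 and RBL2. Without HN30 siFAT1-2 repeat 2 FOXM1 was at -1.27 and called (edgeR adjusted p = 0.0128), and without HN6 siFAT1-1 repeat 1 MYBL2 was at -0.47. LIN37 reached the fold threshold without HN6 siFAT1-2 repeat 2 (-1.03).

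No partner of the DREAM complex outside the 9 genes was called across both lines. Of E2F4, E2F5, TFDP1, TFDP2, DYRK1A, RB1 and RBBP7, 0 of 7 were called with edgeR, 1 had an unadjusted P under 0.05, beside 2016 of all 13887 genes, and the median log2 fold change was -0.10, beside 0.02 over all genes tested. TFDP2, a DP partner of E2F, was at -0.38 (SE 0.16, edgeR adjusted p = 0.312). DYRK1A, the kinase that triggers DREAM assembly by phosphorylating LIN52, was at -0.05 (SE 0.17), and E2F4, its main E2F subunit, at -0.19 (SE 0.14). The other 4 values were 0.37 for E2F5, -0.19 for TFDP1, 0.38 for RB1 and -0.10 for RBBP7. E2F5 was 20.5 CPM in HN30 NC and 3.13 CPM in HN6 NC on average, and its log2 difference between the lines was 2.95 (SE 0.20, edgeR adjusted p = 1.91e-07).

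The relatives of MYBL2 were scarce or did not pass. MYB did not exceed 3.85 CPM in any library, and its log2 fold change across both lines was -0.67 (SE 0.52). It was called lower under siFAT1-1 (-1.43, SE 0.52, edgeR adjusted p = 0.166). MYBL1, between 3.89 and 39.1 CPM, had a value of 0.37 (SE 0.48).

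Among 11 kinases and regulators of the activators, 0 were called across both lines with edgeR, 2 had an unadjusted P under 0.05, beside 2016 of all 13887 genes, and the median log2 fold change was -0.44, beside 0.02. PLK1, which phosphorylates FOXM1 in G2, was at -0.92 (SE 0.37, edgeR adjusted p = 0.276), and CDK4, a G1 kinase that also phosphorylates FOXM1, at -0.86 (SE 0.33, edgeR adjusted p = 0.257). CCNA2 and CDK1 were at -0.66 and -0.53, CCND1 at -0.63, FZR1 at -0.44, MELK at -0.23, CDK2 at -0.21, CDK6 at 0.59 and CDKN1A at 0.58. In HN30 2 of the 11 were called lower, beside 1.91% of all genes, CDK1, the mitotic kinase (-1.13, SE 0.35, edgeR adjusted p = 0.442), and PLK1 (-1.01, SE 0.40, edgeR adjusted p = 0.502). CDK1 lost the call without NC repeat 2 (-0.85) or siFAT1-2 repeat 1 (-0.998) of HN30. PLK1 lost it when any HN30 library but siFAT1-2 repeat 2 was left out (-1.23 to -0.72), with DESeq2 or its size factors (-0.996), with the GC offset (-0.98) and in 1 fit over all libraries (-1.01). In HN6 CDK4 was called lower (-1.06, SE 0.35, edgeR adjusted p = 0.814), the 1 of 11 beside 0.888% of all genes, and it was not without HN6 NC repeat 2 (-0.64) or HN6 siFAT1-2 repeat 1 (-0.90), or with the GC offset, alone (-0.80) or with the block (-0.82). CDKN1A, the CDK inhibitor p21, was at a log2 fold change of 1.98 in HN30 (SE 0.81, edgeR adjusted p = 0.513), where its level was 453 and 342 CPM in NC, 811 and 713 CPM under siFAT1-1 and 3999 and 779 CPM under siFAT1-2. All 4 KD libraries lay above NC, siFAT1-2 repeat 1 far above the others, and the share of all genes lying so was not counted. CDKN1A was the 1 of 11 called higher in HN30, beside 2.09% of all genes. The call of CDKN1A was lost without that library (0.94), NC repeat 1 (2.22) or NC repeat 2 (1.79) of HN30, with DESeq2 (2.01) and with limma-voom (1.55). In HN6 the log2 fold change of CDKN1A was -0.45 (SE 0.43, edgeR adjusted p = 0.822), and 0.15 without HN6 NC repeat 1. The interaction was 2.46 (SE 0.97, edgeR unadjusted P = 0.0267, adjusted p = 1.00), called higher beside 0.879% of all genes. It was not called without HN6 NC repeat 1 (1.87), HN30 NC repeat 1 (2.67) or HN30 NC repeat 2 (2.27), and without HN30 siFAT1-2 repeat 1 it was 1.42.

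Under siFAT1-1 1 of the 11 regulators had an edgeR adjusted p under 0.05, beside 3.25% of all genes, and under siFAT1-2 2 had, beside 11.8%. CDK4 fell under siFAT1-1 (log2 fold change -1.40, SE 0.31, edgeR adjusted p = 0.0289) and was at -0.46 under siFAT1-2. CCND1, the cyclin that pairs with it, fell under siFAT1-2 (-1.40, SE 0.25, edgeR adjusted p = 0.00683) and was at -0.13 under siFAT1-1. FZR1, which targets FOXM1 for destruction in late mitosis, was lower under siFAT1-2 (-0.96, SE 0.17, edgeR adjusted p = 0.00738), within the fold threshold, and at -0.07 under siFAT1-1. CDK6 rose under siFAT1-2 (1.13, SE 0.43, edgeR adjusted p = 0.108), the 1 of 11 called higher there, beside 4.31% of all genes. Tested against each other, the siRNAs differed in CCND1 (1.27, edgeR adjusted p = 0.00632), CDK6 (-1.43, edgeR adjusted p = 0.0411) and FZR1 (0.88, edgeR adjusted p = 0.00631), and CDK4 (-0.94) had an edgeR adjusted p of 0.0544. Thus 3 of 11 had an adjusted p under 0.05 between the siRNAs, beside 17.4% of all genes.

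The genes that these complexes act on were described through lists of 43 mitotic targets and 35 G1/S targets. Both lists came from general knowledge and were written with earlier results of these data known. Their shares beside those of all genes are therefore descriptions only. Across both lines 5 of 43 mitotic targets (11.6%) and 10 of 35 G1/S targets (28.6%) were called lower, beside 1.04% of all genes, and none higher. The median log2 fold changes were -0.66 and -0.69, beside 0.02 over all genes tested, and that of the mitotic targets was -0.42 without HN30 NC repeat 2. Leaving out single libraries moved the count of mitotic targets from 1, without HN30 NC repeat 2, to 15, without HN6 NC repeat 1 or HN30 siFAT1-2 repeat 2, and that of G1/S targets from 4, without HN30 NC repeat 1, to 15, without HN6 NC repeat 1. Of the most abundant mitotic targets, ANLN, which builds the contractile ring, was at -0.02 (SE 0.57), TPX2 at -0.60, CDC20 at -0.88, MKI67 at -0.75 and TOP2A at -0.25. None of these passed the test. Of the most abundant G1/S targets MCM4, a subunit of the replicative helicase, fell by 1.07 on the log2 scale (SE 0.36, edgeR adjusted p = 0.196), MCM7 was at -0.94, TK1 at -0.69, RRM2 at -0.66 and PCNA at -0.63.

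More targets were called in HN30 than in HN6. In HN30 21 of 43 mitotic targets and 19 of 35 G1/S targets were called lower, beside 1.91% of all genes. The medians were -1.12 and -1.21, against 0.03 over all genes tested, -1.52 for FOXM1 and -2.01 for MYBL2. All 43 and all 35 had a value below 0, as did 6432 of all 13602 genes. With the repeat number as a block 33 of the 43 mitotic targets were called, and leaving out single libraries moved that count from 1, without HN30 NC repeat 2, to 40, without HN30 siFAT1-2 repeat 2. For the G1/S targets it ran from 5, without HN30 NC repeat 1, to 31, without HN30 siFAT1-2 repeat 2. In HN6 0 mitotic targets and 1 G1/S target were called lower with edgeR, beside 0.888% of all genes, and 0 and 1 had an unadjusted P under 0.05, beside 779 of all 13626 genes. The medians in HN6 were -0.11 and -0.37, beside 0.03 over all genes tested, and single libraries moved both. Under other processing the mitotic median lay between -0.31, with the GC offset and the block, and -0.074, with DESeq2. The mitotic median was 0.15 without siFAT1-2 repeat 1, 0.0036 without NC repeat 2, -0.19 without siFAT1-1 repeat 2, -0.50 without NC repeat 1 and -0.59 without siFAT1-2 repeat 2. The G1/S median was -0.03 without NC repeat 2, -0.14 without siFAT1-2 repeat 1 and -0.68 without NC repeat 1. The interaction was below 0 in all 43 and all 35, as in 6664 of all 13887 genes. None of the targets was called by that edgeR test, beside 0.915% of all genes called lower, and 0 had an unadjusted P under 0.05, beside 298 of all genes.

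**Figure D5:**
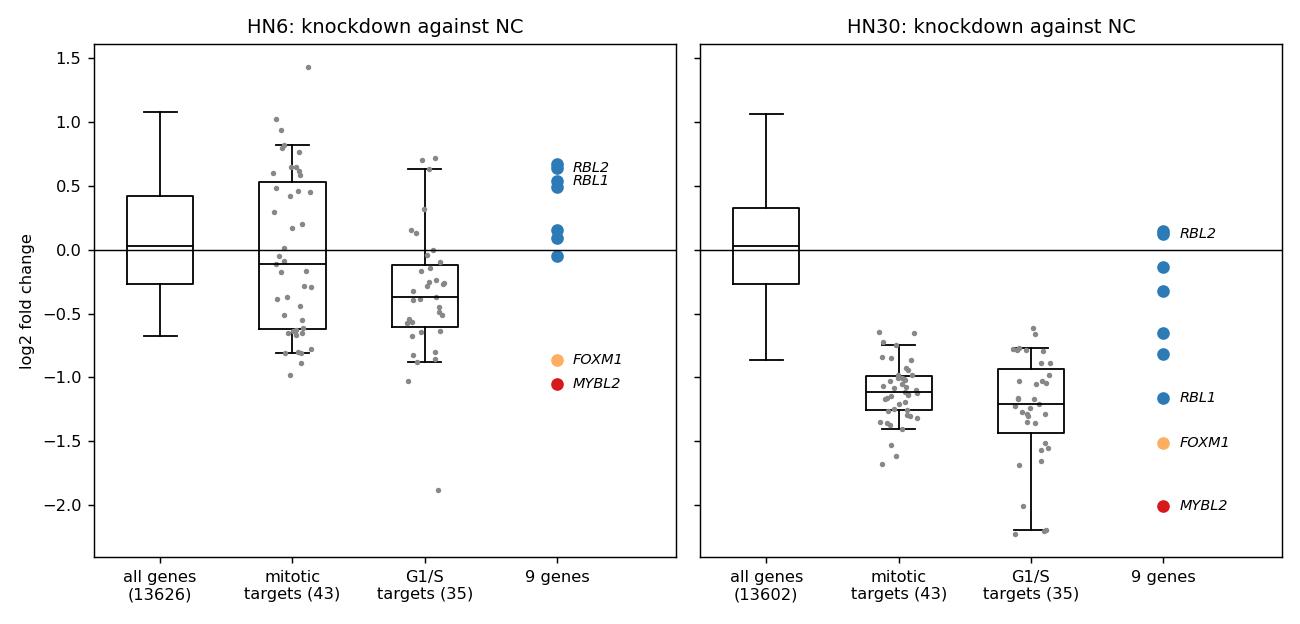
Log2 fold change of KD over NC (vertical) in HN6 and HN30 for all genes tested, the mitotic targets, the G1/S targets and the 9 genes, with boxes for quartiles, whiskers for the middle 90% and points for single genes. In HN30 all points of both target lists lie below 0, and in HN6 they lie on both sides.

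Library by library, the mean log2 CPM of the mitotic targets against NC of the same line was -1.41 and -1.22 under siFAT1-1 in HN30 and -1.93 and -0.26 under siFAT1-2. In HN6 it was -0.25 and 0.03 under siFAT1-1 and -1.32 and 0.97 under siFAT1-2. In HN6 siFAT1-2 repeat 2 the mean of the mitotic targets was thus above NC. MYBL2, at 98.6 CPM, was below both NC libraries there, and FOXM1, at 179 CPM, was between them. Single targets went both ways, shown here by 2 picked from the 43, and the number on each side is not given here. The higher siFAT1-2 library of HN6 had 379 CPM of CDC20 and 64.2 CPM of ASPM, beside NC means of 440 and 12.6 CPM. HN6 siFAT1-2 repeat 2 had the lowest GC tilt of the 12 (-0.903) and HN6 NC repeat 2, part of the NC mean, the highest (1.16). The part of the tilt in this split was not tested.

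The genes whose log2 CPM, centred within each line, was most like that of MYBL2 over the 12 libraries were DHRS7B (r = 0.984), UCK1 (r = 0.979), RCCD1 (r = 0.975), ZNF213 (r = 0.967) and CIZ1 (r = 0.962), out of 12498 genes compared. Those most like FOXM1 were FH (r = 0.993), FANCG (r = 0.988), PASK (r = 0.988), CENPW (r = 0.987) and DNMT1 (r = 0.986). FOXM1 and MYBL2 had r = 0.722 with each other, and FOXM1 came at place 1099 in the list of MYBL2. RBL1 had r = 0.483 with MYBL2 and 0.670 with FOXM1, whereas RBL2 had r = -0.554 and -0.457. The libraries share their depth and GC tilt across genes, so these values are descriptions.

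The genes that overlap FOXM1, RBBP4 and RBL2 on the other strand were not called across both lines. ITFG2 was at a log2 fold change of 0.03 (SE 0.24) across both lines, SYNC at 0.61 (SE 0.38) and AKTIP at -0.01 (SE 0.20), none past the test. ITFG2, between 7.11 and 16.8 CPM, was lower under siFAT1-1 than under siFAT1-2 by 0.73 on the log2 scale (SE 0.18, edgeR adjusted p = 0.0192), beside the difference of -0.72 for FOXM1. Whether strand was used in counting is not given in the sources used here, so reads of these pairs cannot be told apart where their exons overlap.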

How the data were processed

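Poly(A) RNA libraries of the 12 samples were sequenced as paired reads. According to the labels, the authors deposited whole-number counts per gene without normalization, made on hg38, and their processing notes name HISAT2 and featureCounts without versions. Annotation and strand setting are not given in the sources used here. All 12 columns were used and 0 were left out.

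The quasi-likelihood test of edgeR 4.0.16 (R 4.3.3) was run with TMM scaling, filterByExpr (minimum count 10) and the cell line as covariate. Benjamini-Hochberg adjustment covered every gene tested. CPM values use TMM library sizes, with a prior count of 2 for log2 CPM and 0.125 for fitted fold changes. Intervals are 95%. The study's thresholds, an unadjusted P under 0.05 and a log2 fold change beyond 1, define a call. P-values measure the spread between libraries within the groups of each fit. Where KD is 1 group, that spread also holds the difference between the siRNAs. In fits across both lines, except the interaction, it also holds any difference of the effect between the lines. Repeats differed from each other far beyond counting noise. No library was a duplicate of another.

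The labels give the repeat number as time1 or time2 and do not say whether same-numbered libraries were made together. The main fits did not use it. Only the replicate block and the permutations within repeat numbers took it as a pairing within a line. Deviations from the group means correlated between same-numbered libraries in HN6 at r = 0.0778 for NC and siFAT1-1, 0.219 for NC and siFAT1-2, and 0.242 for both siRNAs, and in HN30 at r = -0.0337, 0.405 and -0.0216. Sample titles call the knockdown reagents hairpins 1 and 2 where descriptions call them siRNAs, and they were mapped as siFAT1-1 and siFAT1-2.

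Of 19223 symbols, 18278 matched GENCODE 44 directly and 753 through an older symbol. GC content was known for 13800 of 13887 genes tested. The members, lists and tests were chosen with earlier results of these data known. Named genes were FAT1, the 9 genes, their DREAM partners, regulators and MYB relatives, with the overlapping genes added. The 5 most abundant of each target list and the 5 genes most like MYBL2 and FOXM1 were also named. ASPM was picked outside these rules. Alternatives were DESeq2's size factors, DESeq2 1.42.0, limma-voom 3.58.1, no filter, no cell line term, 1 fit of both lines for the values within a line, the replicate block, leaving out each library and, chosen after seeing the data, a GC-content offset (loess, span 0.5), the alternatives for CDKN1A, CDK1, CDK4 and PLK1 and the permutations within repeat numbers. Steps were tested on simulated data. Promoter words were matched on both strands. The value of 1 gene among the kinases and regulators is not reported here.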

Additional observations from a re-analysis of the deposited data

Results flagged for a closer look

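The effect of knockdown stood out between the lines for 4 genes, given as HN30 minus HN6 on the log2 scale, and none of the differences passed adjustment over all genes. For FAT1 the difference was 1.22 (edgeR unadjusted P = 0.0493, adjusted p = 1.00), with a smaller difference from NC in HN30. RBL1 differed by -1.67 (edgeR unadjusted P = 0.0163, adjusted p = 1.00). CDKN1A differed by 2.46 (edgeR unadjusted P = 0.0267, adjusted p = 1.00), and by 1.42 without HN30 siFAT1-2 repeat 1. On the log2 CPM scale the KD libraries of LIN54 were all above the NC mean in HN6 and all below it in HN30, and the tested difference was -1.45 (edgeR unadjusted P = 0.0754, adjusted p = 1.00). HN6 NC repeat 2, with its GC tilt of 1.16, enters all 4 differences, and without it those of RBL1, LIN54 and CDKN1A were -1.28, -0.72 and 2.91. Without HN6 NC repeat 1 that of LIN54 was -2.91 and called, as it was with limma-voom (-1.80) and the GC offset (-1.19).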

How the results depend on the processing

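MYBL2 and FOXM1 were called lower across both lines under all 8 alternatives and all 12 fits without 1 library (log2 fold changes of MYBL2 -1.80 to -1.34, of FOXM1 -1.58 to -1.04). Adjusted p-values of MYBL2 ran from 0.0167 with DESeq2 to 0.507. Without the cell line term LIN52 was at 0.014, 1 of the 9 genes was called under siFAT1-1, 2 mitotic and 6 G1/S targets were called across both lines, and of all genes 231 in place of 426 were called across both lines, 398 in place of 775 under siFAT1-1, 699 in place of 1258 under siFAT1-2 and 1058 in place of 1720 between siRNAs. With the replicate block 33 mitotic targets were called in HN30, beside 271 of all 13602 genes called lower. Under siFAT1-2 the block called 2 of the 9 genes, beside 1391 of all 13887, and limma-voom 2, beside 1453. The block changed no other call of the 9 genes. One fit over all libraries called 9 mitotic targets in HN30, beside 274 of all 13887 genes called lower. Limma-voom called 2 of the 9 genes in the interaction, beside 236 of all 13887.

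The offset for GC content, alone or with the block, was chosen after seeing the data. It called 0 of the 9 genes between siRNAs, 2 in the interaction and 1 between lines. Of all 13887 genes it called 1386, 222 and 4095 alone, and 1446, 200 and 4119 with the block. When blocked it called 33 mitotic targets in HN30, beside 273 of all 13602 genes called lower. In HN6 the offset gave LIN9 -0.024 (-0.061 with the block), LIN37 0.22 (0.21), LIN52 -0.043 (-0.0061) and RBBP4 -0.20 (-0.14), each of the opposite sign to the reported value and none called.

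Without 1 library, log2 fold changes across both lines ran from -0.52 to 0.14 for LIN9, -0.018 to 0.096 for LIN37, -0.27 to 0.019 for LIN52, -0.57 to 0.10 for LIN54 and -0.18 to 0.058 for RBBP4. In HN6 they ran from -0.24 to 2.02 for LIN9, -0.16 to 0.059 for LIN37, -0.13 to 0.50 for LIN52, -0.048 to 2.14 for LIN54 -0.20 to 0.46 for RBBP4 and -0.88 to 0.15 for CDKN1A. The cause was not tested. Without HN30 siFAT1-2 repeat 2, 4 of the 9 genes were called in HN30, beside 771 of all 13536 genes. With all libraries it was 3, beside 544 of 13602. Without single libraries, 1 to 2 of the 9 were called under each siRNA. Beside these, 520 to 969 of all genes were called under siFAT1-1 and 1072 to 1656 under siFAT1-2. Between siRNAs 0 to 1 were called, beside 1434 to 1934 of all genes, and between lines 1 to 3, beside 4052 to 4497. The highest counts in HN6 and in the interaction came from fits with a lone NC library, whose values are given above. Mitotic targets called ran from 1 to 15 across both lines and 1 to 40 in HN30, and G1/S targets from 4 to 15 and 5 to 31, and 1 to 3 in HN6. With NC repeat 2 as the lone NC library of HN6, 1599 in place of 420 genes were called in that line, and 1448 in place of 249 in the interaction, which fell to 163 without HN6 siFAT1-2 repeat 2. Without HN30 NC repeat 1, 326 in place of 544 were called in HN30. A lone NC library is assumed to vary like the other groups.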
